A study of Mus musculus with 10 samples.

Results

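The 58 genes described here carry, receive, block and read out WNT signals. They were chosen by gene symbol from the 55487 rows of a count table of mouse pancreatic tumours. The rule itself reads no measured value, but the genes were chosen with earlier results of these data known. They fall into 5 roles, with 19 WNT ligands and 12 receptors (Frizzled genes with Lrp5 and Lrp6). Another 12 are listed as antagonists, among them Notumos, the antisense transcript at the Notum locus. The other roles are 9 genes of the R-spondin axis, and 6 target genes and nuclear factors. Sequenced were 10 primary pancreatic tumours of KPF mice, a genetically engineered model of pancreatic cancer, on a C57BL/6J background. In 5 tumours Grem1, which encodes the secreted BMP antagonist Gremlin 1, was labelled Grem1wt/wt, and those mice were given peanut oil as vehicle. The other 5 tumours were labelled Grem1∆/∆, and those mice were given tamoxifen at 100 mg/kg body weight. Either treatment was a daily dose over 5 days and began at 5 weeks of age. Animals were 6 to 12 weeks old when used. Genotype and tamoxifen differ together between the groups and cannot be told apart. The labels name neither the Cre driver nor the cells it acts in.

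WNT proteins are lipid-modified signals that act over short distances. A WNT bound to a Frizzled receptor and to Lrp5 or Lrp6 keeps β-catenin from being degraded, and β-catenin then joins TCF/LEF factors at target genes. Several of those targets, such as Axin2, Nkd1, Notum, Rnf43 and Znrf3, dampen the signal in turn, and R-spondins acting through Lgr receptors lift the block that Rnf43 and Znrf3 place on Frizzled receptors. In pancreatic ductal cancer, tumours that have lost RNF43 are known to depend on WNT ligands. Other WNTs, Wnt5a and Wnt11 among them, are known mainly for signals that do not pass through β-catenin.

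The libraries held between 10159891 and 18571519 estimated counts. Grem1 itself averaged 19.1 CPM (reads of a gene relative to the scaled library total) in the wild-type group and 40.2 CPM in the other group (log2 fold change 1.08, SE 0.79). The measurement does not show the deletion, so the groups are named by their labels throughout. The labels call the material bulk tumour tissue, while the extraction protocol speaks of sorted cells. Epithelial Epcam (172 to 605 CPM) and fibroblast Col1a1 (1815 to 10434 CPM) were present in all 10 libraries. The tumour labelled deleted 1 stood apart from the other 9 on the first principal component, which took 39.9% of the variance. Its summed level of 7 fibroblast markers was 5280 CPM against 10653 to 19152 CPM elsewhere. That of 7 epithelial markers was 1809 CPM against 3382 to 5888 CPM. The sum was also lowest there for macrophage markers (1385 CPM against 2264 to 5054 CPM). For smooth muscle and pericyte markers it was 309 CPM against 366 to 806 CPM. T cell, endothelial, intestinal, and glia and nerve sums were lowest there too, while mesothelial, B cell, acinar and islet sums were not. The tumour labelled deleted 2 carried an intestinal signal: 10 intestinal markers summed to 2339 CPM there and to between 72.6 and 303 CPM in the other tumours, with Cdx2 at 35.1 CPM against at most 1.07 CPM. In bulk tissue, fewer cells of a type and less RNA per cell cannot be told apart.

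Of the 58 genes, 46 had enough reads to be tested. The other 12 were Wnt1, Wnt3, Wnt3a, Wnt8a, Wnt8b, Wnt9b, Wnt16, Fzd9, Dkk1, Dkk4, Rspo2 and Rspo4. Their highest level was 1.73 CPM, for Wnt1 in wild-type tumour 1, and 9 of them stayed under 1 CPM in every tumour. Wnt3a, a classical activator of β-catenin signalling, had 0 counts in all 10 libraries. A count of 0 allows a level of up to 0.162 to 0.295 CPM, depending on the library (3 counts of the total, counting error only).

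Per kilobase of exon, the most abundant WNT gene in these tumours was Sfrp1, a secreted decoy that binds WNTs, at a mean of 126.6 CPM per kb. Fzd1 followed at 83.0 CPM per kb and led the receptors. Dkk3, at 48.9, Sfrp2, at 29.9, and Dkk2, at 29.6 CPM per kb, came next. Genes listed here as antagonists thus took 4 of the 5 highest places. Among ligands the order was Wnt7b (20.7 CPM per kb), Wnt4 (15.3), Wnt7a (13.5) and Wnt5a (10.6), neighbours whose ranges over tumours overlapped. The target genes lay between 13.7 CPM per kb for Tcf7 and 0.536 for Ascl2.

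**Figure D1:**
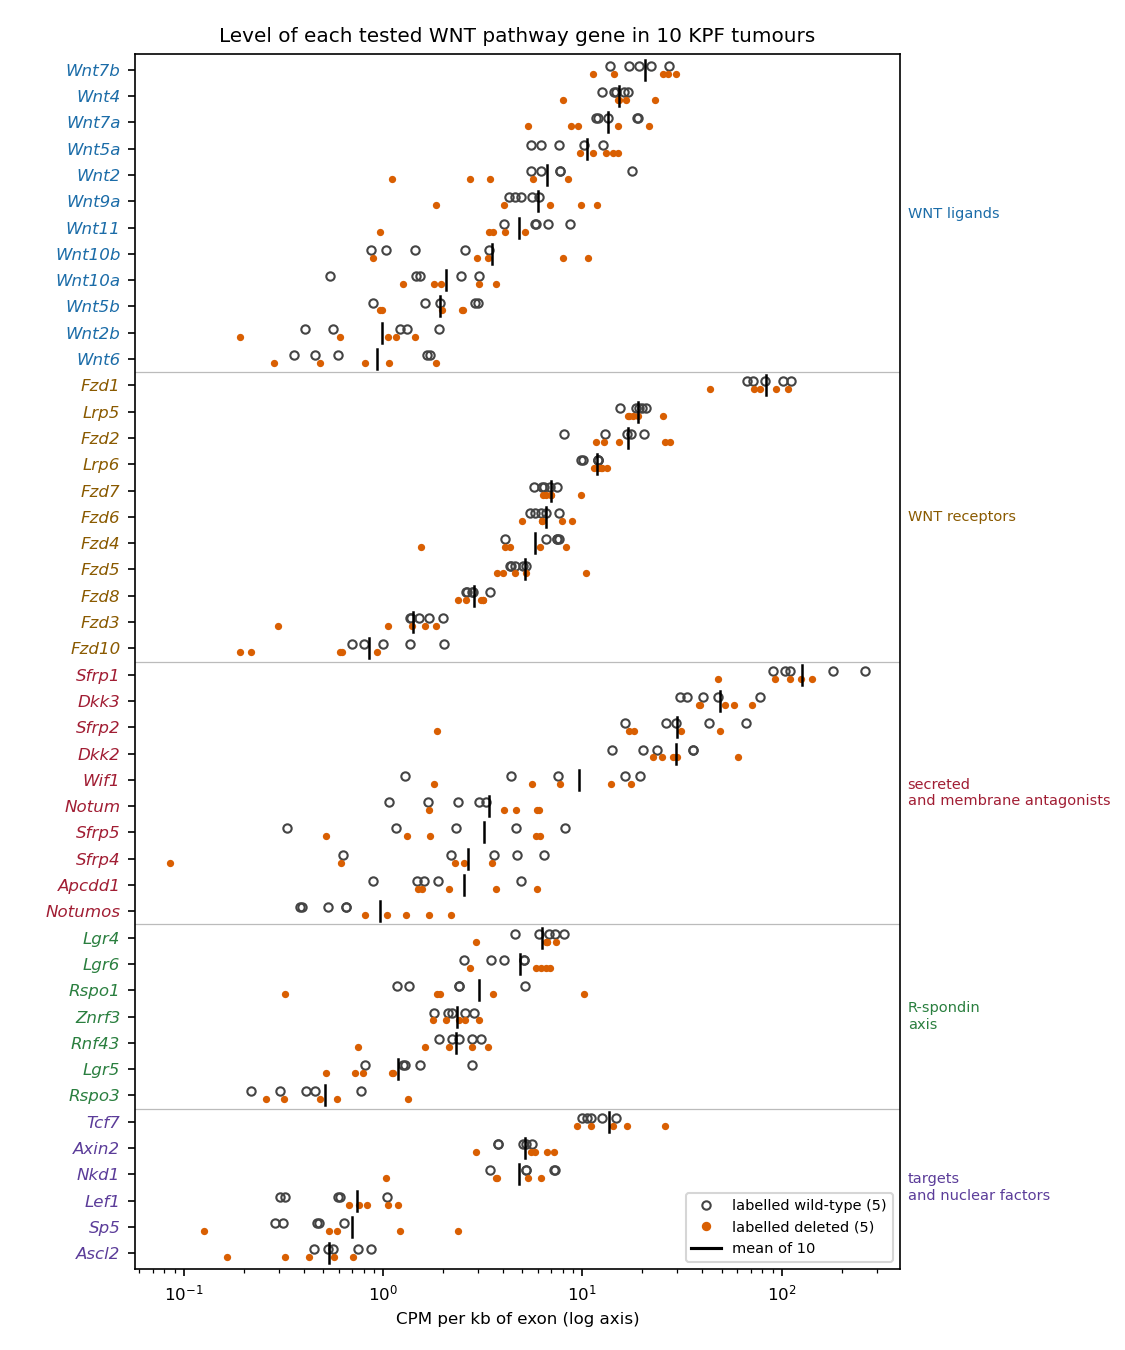
Level of each of the 46 tested WNT genes per tumour in CPM per kilobase of exon on a log10 axis, ordered by role; open and filled points are the wild-type tumours and those labelled deleted, and the black line is the mean of 10. Sfrp1 and Fzd1 lie highest at means of 126.6 and 83.0 CPM per kb, and points of both groups overlap for all genes but Notumos.

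The comparison of the groups asked how tumours labelled Grem1-deleted differ from wild-type tumours. With edgeR's quasi-likelihood test, 0 of the 46 tested WNT genes had an adjusted p under 0.05, as did 0.0% of all 16565 tested genes. DESeq2 and limma-voom also called 0 of them, while DESeq2 called 7 genes of the whole table (0.0224%). At an unadjusted p under 0.05 there were 7 WNT genes, or 15.2%, beside 5.93% of all tested genes. Wnt5a, Wnt10b, Notum and Notumos were the 4 with a higher value in the libraries labelled deleted (3.47% of all genes). Wnt11, Fzd10 and Lgr5 were the 3 with a lower value (2.46% of all genes). These 7 share no single role: they are 3 ligands, 1 receptor, 1 secreted enzyme with its antisense transcript, and 1 R-spondin receptor. The WNT genes were chosen with earlier results of these data known, so their share beside that of all genes cannot serve as a test. Notum and Notumos also share 708 exon bases, and reads from that part cannot be told apart.

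The count of 7 rested on single tumours. It was 2 without wild-type tumour 1 (3.81% of all genes), 4 without wild-type tumour 4 (3.94%), 3 without wild-type tumour 5 (3.69%), 2 without the tumour labelled deleted 2 (5.45%) and 4 without the tumour labelled deleted 4 (5.39%). It was 6 without the tumour labelled deleted 1 (5.42%), with Axin2, Sp5 and Wnt9a among them. Without the tumours labelled deleted 1 and 2 together it was 4 (4.24%): Axin2, Notumos, Wnt11 and Wnt9a. The remaining fits gave 6 without the tumour labelled deleted 3 (9.82% of all genes), 8 without the tumour labelled deleted 5 (8.58%), 8 without the second wild-type tumour (7.2%) and 5 without the third (4.71%). Notumos was under 0.05 in each of these fits. For 38 of the 46 genes, leaving out 1 tumour changed the log2 fold change by over 1.5 times or turned its sign; the 8 exceptions were Wnt5a, Wnt10b, Wnt11, Fzd10, Lrp6, Notum, Notumos and Lgr6.

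Over the 46 genes the log2 fold change was above 0 for 26 and below 0 for 20, where 55.1% of all tested genes were above 0. Their median was 0.05, beside 0.03 for all tested genes. By role the medians were -0.02 for ligands (6 above 0 and 6 below), 0.04 for receptors (7 and 4), 0.04 for antagonists (5 and 5), 0.04 for the R-spondin axis (4 and 3) and 0.33 for targets and nuclear factors (4 and 2). The same medians without the tumour labelled deleted 1 were 0.06, 0.02, 0.18, 0.06 and 0.28.

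**Figure D2:**
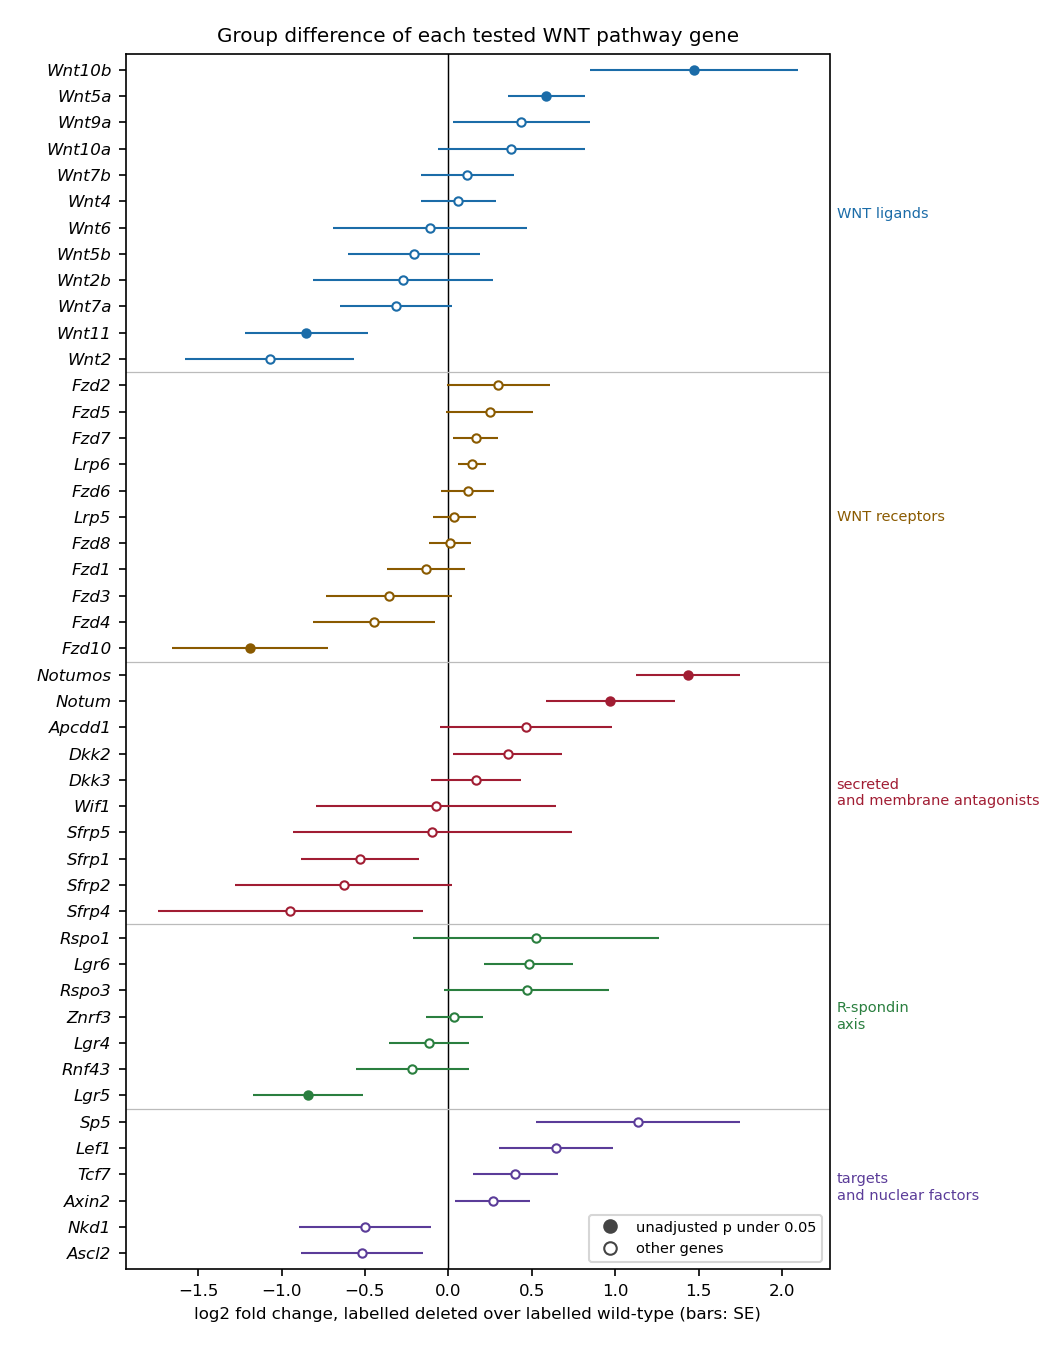
Log2 fold change of each tested WNT gene, tumours labelled deleted over wild-type tumours (x axis), with bars of 1 SE, grouped by role; filled points have an unadjusted p under 0.05 in edgeR's quasi-likelihood test. The 7 filled points lie between -1.19 (Fzd10) and 1.47 (Wnt10b), and the adjusted p of every gene shown is at least 0.759.

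Of the 12 ligands tested, 2 had higher and 1 had lower values at an unadjusted p under 0.05. Wnt5a (ENSMUSG00000021994, chromosome 14, 28504750 to 28527448, plus strand, GRCm38), a ligand known for β-catenin-independent signalling in stroma and at invasive fronts, measured 43.1, 80.2, 99.6, 48.3 and 59.9 CPM in wild-type tumours 1 to 5. The tumours labelled deleted held 111, 119, 88.6, 103 and 75.9 CPM in the same order. Of these, 3 lay above every wild-type tumour, and wild-type tumour 3 lay above the other 2. The means were 66.2 ± 23.5 and 99.5 ± 17.3 CPM (SD, n = 5 each), a log2 fold change of 0.59 (SE 0.23, adjusted p = 0.759 in edgeR's test, exact two-sided permutation p = 0.0476). Leaving out each tumour in turn gave between 0.47 and 0.78. Here and below, the exact permutation p is unadjusted and uses the same tumours as edgeR's test. It was computed for genes named partly by a small p in that test, so it is no second support. Gm2670 overlaps 4.58% of the exon bases of Wnt5a on the other strand.

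Wnt10b (ENSMUSG00000022996, chromosome 15, 98770712 to 98778150, minus strand), a ligand of the β-catenin branch, measured 11.6, 8.74, 2.97, 3.54 and 4.94 CPM in the wild-type tumours. In the tumours labelled deleted it measured 36.1, 27.2, 3.04, 10.1 and 11.5 CPM. The first and second of those stood far above all others, while the remaining 3 lay within the wild-type range. The log2 fold change was 1.47 (SE 0.62), the largest of the 46 genes, with an adjusted p of 0.759 in edgeR's test and an exact two-sided permutation p of 0.159. Without those 2 tumours it was 0.38 (SE 0.54).

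Wnt11 (ENSMUSG00000015957, chromosome 7, 98835112 to 98855195, plus strand), a ligand of polarity and cell movement, went the other way. Its wild-type values were 27.8, 16.7, 24.2, 35.8 and 24.0 CPM, and those of the tumours labelled deleted were 4.00, 14.1, 14.8, 16.9 and 21.3 CPM. Of the wild-type tumours, the second alone lay among the others. The log2 fold change was -0.85 (SE 0.37, adjusted p = 0.759 in edgeR's test, exact two-sided permutation p = 0.0238), and -0.62 (SE 0.21) without the tumour labelled deleted 1. Wnt5a and Wnt11, both of the β-catenin-independent branch, thus had log2 fold changes of opposite sign.

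Wnt7b (ENSMUSG00000022382), an epithelial ligand and the most abundant of its family here, measured 109, 133, 84.3, 67.5 and 94.0 CPM in the wild-type tumours and 132, 71.0, 55.6, 125 and 144 CPM in the others. The 2 ranges overlapped almost wholly, with a log2 fold change of 0.11 (SE 0.28) that was -0.02 without the tumour labelled deleted 5. Wnt4 gave 0.06 (SE 0.23), and -0.14 without the tumour labelled deleted 3. Wnt7a, the close relative of Wnt7b, gave -0.31 (SE 0.34), with -0.13 and -0.63 without the tumours labelled deleted 1 and 5 in turn. Wnt2, a ligand made by fibroblasts in many tissues, averaged 20.3 ± 11.3 and 9.64 ± 6.42 CPM (SD, n = 5 each; log2 fold change -1.07, SE 0.51). It was lowest, at 2.49 CPM, in the tumour labelled deleted 1, where markers of fibroblasts and of several other cell types were also lowest. The part of that in the Wnt2 difference was not tested, and without that tumour the log2 fold change was -0.83 (SE 0.43). It was -0.67 without wild-type tumour 1, the highest of all 10. Wnt9a measured 14.3 to 20.1 CPM in the wild-type group and 6.14, 13.5, 39.5, 32.9 and 22.9 CPM in the other. This gave a log2 fold change of 0.44 (SE 0.41), with 0.68 (SE 0.27) without the tumour labelled deleted 1. It was 0.15 without the tumour labelled deleted 3 and 0.26 without the tumour labelled deleted 4. The remaining 4 ligands, Wnt2b, Wnt5b, Wnt6 and Wnt10a, averaged under 6 CPM and had log2 fold changes from -0.27 to 0.38.

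Among the 11 receptors tested, Fzd10 alone had an unadjusted p under 0.05. Fzd10 (ENSMUSG00000081683, chromosome 5, 128600844 to 128604093, plus strand, a single exon) measured 6.60, 2.28, 4.46, 3.23 and 2.62 CPM in the wild-type tumours. In those labelled deleted it measured 0.623, 0.7096, 1.97, 2.03 and 3.02 CPM, so 4 of 5 lay below every wild-type tumour. The log2 fold change was -1.19 (SE 0.47, adjusted p = 0.759 in edgeR's test, exact two-sided permutation p = 0.0397). Between 7 and 84 reads per library stand behind these values.

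Lrp6 and Lrp5, the co-receptors of the β-catenin branch, varied little. Lrp6 (ENSMUSG00000030201) measured 137, 165, 135, 165 and 164 CPM in the wild-type tumours and 182, 157, 164, 170.3 and 172 CPM in the others. Its highest value was 1.35 times its lowest, the narrowest range of the 46 genes. The log2 fold change was 0.14 (SE 0.08), and Lrp5 gave 0.04 (SE 0.13), which turned to -0.09 without the tumour labelled deleted 1.

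Fzd1 (ENSMUSG00000044674), the most abundant receptor, measured 345, 425, 283, 468 and 303 CPM in the wild-type tumours and 183, 304, 327, 452 and 393 CPM in the others. Its log2 fold change of -0.14 (SE 0.23) turned to 0.02 without the tumour labelled deleted 1. Fzd4 (ENSMUSG00000049791), also a receptor for norrin and known from endothelium, measured 50.0, 27.5, 51.6, 50.2 and 44.1 CPM in the wild-type tumours. The others held 10.4, 27.5, 55.6, 29.1 and 41.3 CPM (log2 fold change -0.45, SE 0.37, with -0.22 and -0.73 without the tumours labelled deleted 1 and 3 in turn). The 6 endothelial markers summed to 233 CPM in the tumour labelled deleted 1 and to between 294 and 573 CPM in the other 9; their part in the Fzd4 values was not tested. Fzd5, a receptor of gut and pancreatic epithelium, was at 72.2 CPM in the tumour labelled deleted 2, the one with the intestinal markers, and between 25.8 and 36.2 CPM elsewhere. Its difference of 0.25 on the log2 scale was -0.10 without that tumour.

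**Figure D3:**
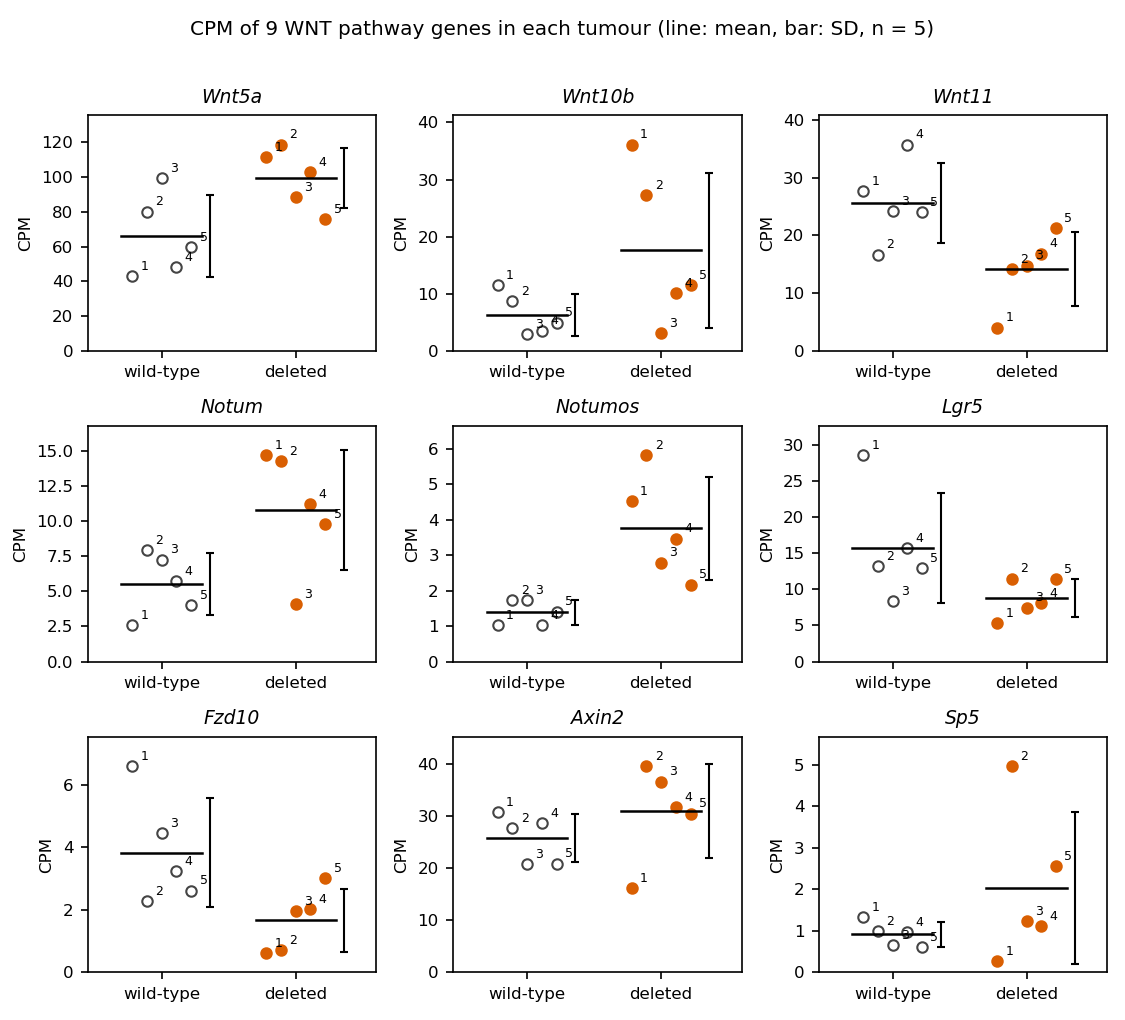
CPM of 9 WNT genes in wild-type tumours and tumours labelled deleted; each point is 1 tumour with its number, the line is the mean and the bar the SD (n = 5 each), and each panel has its own axis from 0. In the Notumos panel the groups do not overlap, at 1.02 to 1.73 against 2.17 to 5.82 CPM.

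The largest separation among the antagonists, and among all 46 genes, was in the antisense transcript at the Notum locus. Notum encodes a secreted enzyme that strips WNT proteins of the lipid they need, and it is itself a β-catenin target. Notumos (ENSMUSG00000053613, chromosome 11, 120659157 to 120661815, plus strand, 1 exon) is annotated antisense to it. Notumos measured 1.02, 1.73, 1.73, 1.04 and 1.41 CPM in the wild-type tumours and 4.54, 5.82, 2.79, 3.47 and 2.17 CPM in those labelled deleted. Every tumour labelled deleted lay above every wild-type tumour. This held for 1 of the 46 genes, beside 0.495% of all tested genes. In 0 of the 46 the tumours labelled deleted all lay below, beside 0.435% of all tested genes.

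The Notumos means were 1.39 ± 0.352 and 3.76 ± 1.45 CPM (SD, n = 5 each). That is a log2 fold change of 1.44 (SE 0.31). The unadjusted p was 0.000869 and the adjusted p 0.759 in edgeR's test. DESeq2 gave it the lowest adjusted p of the WNT genes, 0.0838. The exact two-sided permutation p was 0.00794, the smallest that 5 against 5 can give. That value follows from the groups not overlapping and adds nothing to it. Leaving out each tumour in turn gave log2 fold changes from 1.22 to 1.58, and 1.02 remained without the tumours labelled deleted 1 and 2. The transcript is rare, with 13 to 21 reads per wild-type library and 33 to 82 per library labelled deleted.

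Notum itself (ENSMUSG00000042988, chromosome 11, 120653788 to 120661175, minus strand) measured 2.59, 7.92, 7.27, 5.74 and 4.03 CPM in the wild-type tumours. The tumours labelled deleted held 14.7, 14.3, 4.10, 11.2 and 9.80 CPM. All but the third of these lay above every wild-type tumour. The means were 5.51 ± 2.22 and 10.8 ± 4.27 CPM (SD, n = 5 each; log2 fold change 0.97, SE 0.38, adjusted p = 0.759 in edgeR's test, exact two-sided permutation p = 0.0635). The genes share 708 exon bases on opposite strands, 29.4% of the exon bases of Notum and 26.6% of those of Notumos. The strand setting of the counting is not stated in the labels, so reads from the shared part cannot be told apart.

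**Figure D4:**
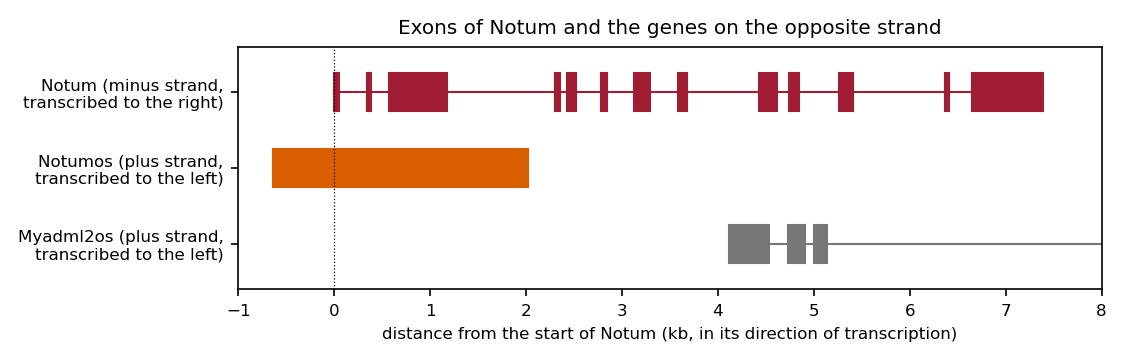
Exons of Notum, Notumos and Myadml2os as boxes along the distance in kilobases from the start of Notum, with the direction of each gene; Myadml2os runs on past the right edge. The single exon of Notumos runs from -0.64 to 2.018 kb and covers the first exons of Notum on the opposite strand, sharing 708 bases with them.

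Several secreted decoys varied widely between tumours. The highest tumour exceeded the lowest 75.6 times for Sfrp4 (4 reads in the lowest), 35.7 times for Sfrp2, 24.8 times for Sfrp5 (8 reads in the lowest) and 15.1 times for Wif1, while for Sfrp1 it was 5.49 times. Rspo1, at 31.9 times, Sp5, at 18.6 times, and Wnt2, at 16.1 times, lay in the same range. Sfrp1 (ENSMUSG00000031548) measured 1148, 396, 482, 789 and 456 CPM in the wild-type tumours and 209, 619.8, 484, 406 and 546 CPM in the others. Its log2 fold change of -0.53 (SE 0.35) was -0.23 without wild-type tumour 1, the highest of all. Sfrp2 was at 4.00 CPM in the tumour labelled deleted 1, against 35.2 to 143 CPM in the other 9, and Sfrp4 was at 0.356 CPM there, against 2.56 to 26.9 CPM. That tumour had the lowest marker sums of fibroblasts and of several other cell types, as given above. The part of that in these values was not tested. Dkk2 and Dkk3, of the Dickkopf family, had log2 fold changes of 0.35 (SE 0.33) and 0.16 (SE 0.27), and the membrane antagonist Apcdd1 0.47 (SE 0.51). All rest on the tumour labelled deleted 4, without which they were 0.016, 0.015 and 0.043. Without wild-type tumour 2, Dkk3 was 0.43 and Apcdd1 1.007.

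In the R-spondin axis, Lgr5 was the gene with an unadjusted p under 0.05. Lgr5 (ENSMUSG00000020140, chromosome 10, 115450311 to 115587780, minus strand), an R-spondin receptor and a stem cell marker in the gut, measured 28.5, 13.2, 8.34, 15.7 and 12.9 CPM in the wild-type tumours. In the tumours labelled deleted it measured 5.34, 11.5, 7.47, 8.11 and 11.4 CPM. Those were all below 4 of the 5 wild-type tumours. The log2 fold change was -0.84 (SE 0.33, adjusted p = 0.759 in edgeR's test, exact two-sided permutation p = 0.0397), and -0.52 without wild-type tumour 1.

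Its relatives differed from it in sign or size. Lgr6 (ENSMUSG00000042793) measured 35.1, 34.9, 23.9, 17.5 and 27.7 CPM in the wild-type tumours and 47.0, 40.305, 18.7, 45.3 and 42.7 CPM in the others, so 4 of 5 lay above every wild-type tumour and the third lay near the lowest. The difference came to 0.48 (SE 0.27) on the log2 scale. Lgr4 (ENSMUSG00000050199), the most abundant of the axis at 6.30 CPM per kb, measured 27.0, 35.6, 47.6, 42.8 and 39.9 CPM and then 17.2, 43.4, 38.8, 39.2 and 39.3 CPM. Apart from the tumour labelled deleted 1 the groups covered the same levels, and the log2 fold change of -0.12 (SE 0.24) was 0.06 without it.

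Rspo3 (ENSMUSG00000019880), an R-spondin made by stromal cells, was rare: 0.943, 1.28, 2.39, 0.671 and 1.41 CPM in the wild-type tumours and 0.801, 4.12, 1.81, 1.49 and 0.986 CPM in the others. Its difference of 0.47 (SE 0.49) on the log2 scale was -0.06 without the tumour labelled deleted 2. Rspo1 ranged from 0.623 to 19.9 CPM. The ubiquitin ligases Rnf43 and Znrf3, which remove Frizzled receptors from the cell surface, had log2 fold changes of -0.22 (SE 0.34) and 0.04 (SE 0.17), the latter -0.07 without the tumour labelled deleted 1. Rnf43 was lowest in the tumour labelled deleted 1, at 4.89 CPM, and highest in the tumour labelled deleted 2, at 22.1 CPM. Its value was -0.0021 without the first of these and -0.44 without the second.

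Axin2, a scaffold of the β-catenin destruction complex and the most widely used readout of the pathway, and Sp5, a transcription factor gene induced by β-catenin, are shown by their promoters since their levels moved together over the tumours. Each sequence holds the 250 bases before the RefSeq start (GRCm38.p6, plus strand, 5′ to 3′), and capitals mark CTTTGAT, core letters of a TCF/LEF recognition sequence.
Axin2, chr11:108920099-108920348: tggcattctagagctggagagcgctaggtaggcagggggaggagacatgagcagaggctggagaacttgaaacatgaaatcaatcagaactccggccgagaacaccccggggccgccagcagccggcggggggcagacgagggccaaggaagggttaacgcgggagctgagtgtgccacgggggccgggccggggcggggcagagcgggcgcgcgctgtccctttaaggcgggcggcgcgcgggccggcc
Sp5, chr2:70474673-70474922: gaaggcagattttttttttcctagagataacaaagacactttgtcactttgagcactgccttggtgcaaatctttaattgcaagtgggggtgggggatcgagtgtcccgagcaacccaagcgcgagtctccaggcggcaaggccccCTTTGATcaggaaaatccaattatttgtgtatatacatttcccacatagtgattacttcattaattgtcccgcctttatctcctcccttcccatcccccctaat
The motif was searched as CTTTGAT and as its reverse complement ATCAAAG, with no other motif searched. It lies in the Sp5 window 104 bases before the start and was not matched in the Axin2 window, which says only that these letters are not there. Windows were found for 37 of the 58 genes, 45 windows in all, and 3 held the motif (Sp5, Wnt11 and Wnt5b), or 6.67%, beside 3.21% of 32851 windows of all genes.

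Axin2 (ENSMUSG00000000142, chromosome 11, 108920349 to 108950783, plus strand) measured 30.7, 27.7, 20.8, 28.6 and 20.9 CPM in the wild-type tumours. In those labelled deleted it measured 16.2, 39.6, 36.6, 31.7 and 30.5 CPM. The tumour labelled deleted 1 was the lowest of all 10, 3 others lay above every wild-type tumour, and the fifth lay just under the highest of them. The means were 25.7 ± 4.61 and 30.9 ± 9.02 CPM (SD, n = 5 each; log2 fold change 0.26, SE 0.22, adjusted p = 0.782 in edgeR's test, exact two-sided permutation p = 0.389). The log2 fold change was 0.42 (SE 0.15) without the tumour labelled deleted 1, 0.16 (SE 0.23) without the tumour labelled deleted 2, which had the intestinal signal, and 0.35 without both.

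Sp5 (ENSMUSG00000075304, chromosome 2, 70474923 to 70477729, plus strand) measured 1.34, 1.00, 0.661, 0.976 and 0.605 CPM in the wild-type tumours and 0.267, 4.97, 1.23, 1.12 and 2.56 CPM in the others. Like Axin2 it was lowest in the tumour labelled deleted 1 and highest in the tumour labelled deleted 2. Its log2 fold change was 1.14 (SE 0.61), 1.41 (SE 0.47) without the first of these and 0.51 without the second. It rests on 3 to 70 reads per library.

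Over the 10 tumours, log2 CPM of Sp5 followed that of Axin2 with Pearson's r = 0.86 (permutation p = 0.00151, 0.0151 after Benjamini-Hochberg adjustment over 10 feedback targets) and Spearman's rho = 0.87 (p = 0.00226, adjusted 0.0226, same permutation test). Without the tumour labelled deleted 1 and wild-type tumour 3, the farthest from the median of Axin2, r was 0.75. It was 0.78 without the tumour labelled deleted 1 alone, with an adjusted permutation p of 0.144, so the call rests on that tumour. Leaving out any other single tumour gave an r from 0.85 to 0.91. Without the tumour labelled deleted 2, whose intestinal marker sum was the highest, r was 0.85. Without the tumours labelled deleted 1 and 2 together, r was 0.70 (adjusted permutation p = 0.479). Each group holds 5 tumours, too few for a value within it.

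The other 9 feedback targets had r between -0.58 (Tcf7) and 0.53 (Rnf43) with Axin2, and the lowest adjusted permutation p among them was 0.286. Notum gave -0.11 and Nkd1 0.47. Znrf3 gave -0.55 over all 10 tumours and -0.88 without wild-type tumour 3 (adjusted permutation p = 0.0113). Without the tumours labelled deleted 1 and 2 it gave -0.05 (unadjusted permutation p = 0.90). Over all 10 tumours, Sp5 was the 1 target that passed the adjusted threshold.

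Nkd1 (ENSMUSG00000031661), which binds Dishevelled and restrains WNT signalling, measured 32.7, 15.7, 33.2, 23.8 and 23.9 CPM in the wild-type tumours and 4.72, 16.8, 28.4, 17.0 and 24.3 CPM in the others. Its log2 fold change was -0.50 (SE 0.40), opposite in sign to that of Axin2, and -0.26 without the tumour labelled deleted 1. Lef1 (ENSMUSG00000027985), a DNA-binding partner of β-catenin, measured 2.83, 5.37, 9.25, 2.69 and 5.24 CPM in the wild-type tumours and 5.96, 6.67, 10.4, 9.29 and 7.30 CPM in the others. Of the latter all 5 were above the second highest wild-type tumour, at 0.65 (SE 0.34) on the log2 fold scale and an exact two-sided permutation p of 0.0714. Without wild-type tumour 3 it was 0.98. Tcf7 (ENSMUSG00000000782), its relative, measured 29.2, 27.6, 32.8, 26.2 and 38.7 CPM and then 68.5, 29.0, 44.1, 24.8 and 37.5 CPM (log2 fold change 0.40, SE 0.25, and 0.13 without the tumour labelled deleted 1).

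T cells also express Lef1 and Tcf7. The 7 T cell markers summed to between 3.55 and 28.8 CPM in the wild-type tumours and to 2.31, 10.01, 78.5, 10.8 and 26.8 CPM in those labelled deleted, with Cd3e at 0 in wild-type tumours 2 and 4. The highest sum and the highest Lef1 were both in the tumour labelled deleted 3, and the part of T cells in the Lef1 values was not tested. Tcf7 was highest in the tumour labelled deleted 1, which had the lowest T cell sum.

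**Figure D5:**
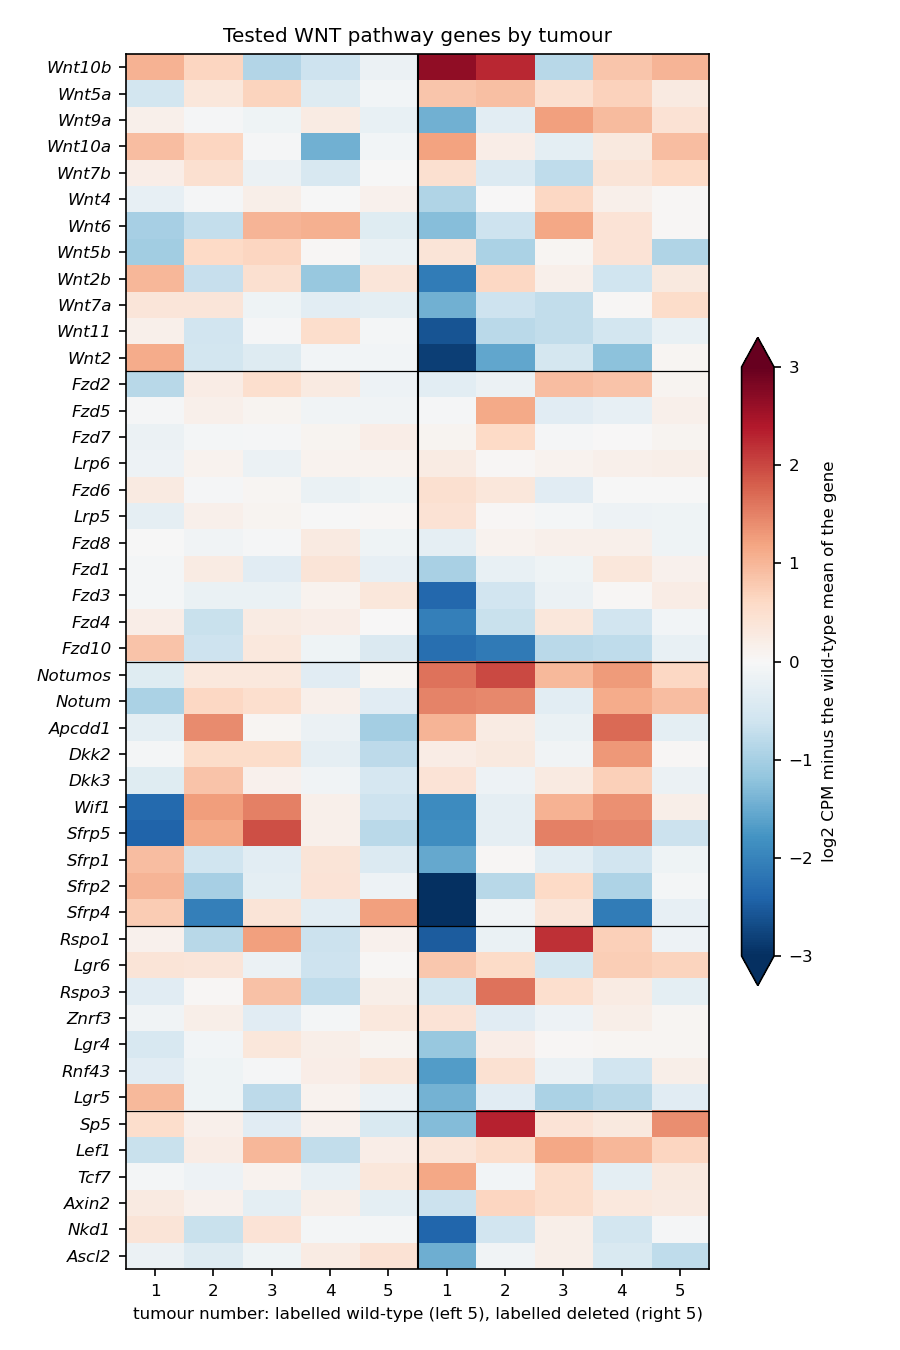
Log2 CPM of each tested WNT gene (rows, by role) in each tumour (columns) minus the wild-type mean of that gene, on a colour scale centred on 0 that ends at -3 and 3. The column of the tumour labelled deleted 1 holds the lowest value of 23 of the 46 genes, and Notumos is the 1 row in which the groups do not overlap.

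The tumour labelled deleted 1 held the lowest value of 23 of the 46 WNT genes (50%), beside 29.4% of all tested genes, and the highest of 9 (19.6%, beside 27.9%). Among the 23 were Axin2, Sp5, Nkd1, Ascl2, Lgr4, Lgr5 and Rnf43 of the axis and its targets, and Sfrp1, Sfrp2 and Sfrp4 of the decoys. Among the 9 were Lrp5, Lrp6, Tcf7, Notum and Wnt10b. The tumour labelled deleted 2 held the highest value of 8 (17.4%, beside 13.8%): Axin2, Sp5, Rnf43, Notumos, Rspo3, Wnt5a, Fzd5 and Fzd7.

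The wider pathway was read from 3 further lists. Of 31 genes for WNT secretion, the destruction complex and β-catenin partners, 21 had a log2 fold change above 0, beside 55.1% of all tested genes. In edgeR's test 1 of the 31 (3.23%) had an unadjusted p under 0.05, beside 5.93% of all tested genes. It was Dvl2, a Dishevelled adaptor, at 0.40 (SE 0.15). Ctnnb1, which encodes β-catenin, measured 1496 to 1572 CPM in the wild-type tumours and 915, 1235, 1214, 1345 and 1608 CPM in the others (log2 fold change -0.27, SE 0.13, and -0.18 without the tumour labelled deleted 1, whose epithelial marker sum was the lowest). The wild-type values were close together, and 4 of the 5 others lay below all of them. Bcl9, a β-catenin cofactor, gave 0.20 (SE 0.11).

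Of 17 receptors and polarity genes of the β-catenin-independent branch, 5 had a log2 fold change above 0 and 12 below 0. In edgeR's test 0 of them had an unadjusted p under 0.05. Over all tested genes 55.1% were above 0 and 5.93% had such a p. The smallest p values belonged to Vangl2 (log2 fold change -0.23, SE 0.14), Daam1 (0.16, SE 0.11) and Celsr1 (-0.54, SE 0.36, and -0.32 without the tumour labelled deleted 1). Without the tumour labelled deleted 1, 10 of the 17 were above 0, beside 8576 of the 16565 genes of the main fit. Of 14 other modulators 11 were tested, with 5 above 0, 6 below 0 and 0 at an unadjusted p under 0.05. Igfbp4 gave -0.28 (SE 0.13), Ndp, which encodes norrin, 1.67 (SE 0.82), and Draxin -0.53 (SE 0.36). The latter 2 were 0.77 and -0.33 without the tumour labelled deleted 1.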

How the data were processed

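Polyadenylated RNA of 10 tumours was sequenced. The submitters' processing notes list RSEM 1.3.3, HISAT2 2.2.1, DESeq2 1.32.0, FastQC 0.11.9 and bcl2fastq 2.0, and the build mm10. No label or header names the annotation release or the strand setting. The authors deposited expected counts per gene (7.96% not whole), which share reads between genes, and per-tumour normalized log2 values of an unnamed transformation, used for 1 alternative. A column whose name lacks the tumour ID number was matched to the tumour labelled deleted 1 by an ending that no other title carries.

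Counts were rounded and filtered with filterByExpr of edgeR 4.0.16 (minimum count 10). Libraries were scaled by TMM, and groups of 5 were compared with the quasi-likelihood F test (robust, Benjamini-Hochberg at 0.05 over 16565 genes). The SE comes from the F statistic. Fold changes are of tumours labelled deleted over wild-type tumours. Log2 CPM has a prior count of 2, and correlations used 100000 permutations, or all of them for fewer than 10 tumours. The exact tests ran over 252 assignments. The common coefficient of biological variation was 0.355, so spread between tumours more than depth set the precision, except for genes with few reads.

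The symbol rule reads no values, but the WNT genes, their roles and the lists were chosen with earlier results of these data known. Genes given with a value in every tumour are Axin2, Nkd1, Notum and Lef1, the 3 with the smallest p and the 1 most abundant per kb in each role, and those whose groups do not overlap, with others named after their values were seen. Exons come from GENCODE M21, and 11 of the 58 genes share exon bases with a gene on the opposite strand, Axin2, Notum, Wnt5a and Wnt11 among them. No 2 libraries agreed within sampling noise (lowest chi-square per degree of freedom 13.3). On simulated data of this design (16373 genes fitted) edgeR recovered 10% of genes changed 1.5-fold and 44% changed 2-fold. It recovered 88% changed 4-fold and 96% changed 8-fold, and 2.46% of its calls were false. The changed genes were drawn from better-counted genes only, and no outlying tumour was simulated, so these shares do not cover rare genes. Alternatives were DESeq2 1.42.0, limma-voom (limma 3.58.1), other scalings and filters, blocks, a threshold of 0.1 and leaving tumours out. Leaving out each tumour in turn for the correlations was chosen after seeing the data. R was 4.3.3, Python 3.11.15 and matplotlib 3.10.9.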

Additional observations from a re-analysis of the deposited data

Results flagged for a closer look

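In 4 of the 40 groups of 5 values examined, for 20 genes in 2 groups, 1 tumour lay far below the rest of its group by Dixon's gap test. Chance alone flags about 1 in 20 of independent groups. These genes were chosen partly by their values and share the same tumours, so the 2 rates cannot be compared. Wnt11 was at 4.0 CPM in the tumour labelled deleted 1, with the others of its group at 14.1 to 21.3 CPM. Lgr4 was at 17.2 CPM in the same tumour, with the others at 38.8 to 43.4 CPM. Lgr6 was at 18.7 CPM in the tumour labelled deleted 3, with the others at 40.305 to 47.0 CPM. Fzd4 was at 27.5 CPM in wild-type tumour 2, with the others at 44.1 to 51.6 CPM.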

How the results depend on the processing

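No WNT gene passed an adjusted p of 0.05 in any fit run, and in the edgeR fit of all 10 tumours none passed 0.1. The lowest adjusted p was 0.0838 (Notumos, DESeq2). Over the whole table DESeq2 called 7 genes and edgeR 0. The 7 WNT genes at an unadjusted p under 0.05 became 2 to 8 when single tumours were left out and 4 without the tumours labelled deleted 1 and 2, and between 6 and 9 in the other fits. The count of feedback targets whose correlation with Axin2 passed, 1 over all tumours, was 0 to 2 when single tumours were left out (0 without the tumour labelled deleted 1, 2 without wild-type tumour 3) and 0 without the tumours labelled deleted 1 and 2. Of the 20 genes given in every tumour, 16 kept the sign of their log2 fold change in every fit run. The other 4 reversed. With single tumours left out, Rspo3 ranged from -0.058 to 0.79, Wnt7b from -0.024 to 0.27, Fzd1 from -0.28 to 0.016 and Lgr4 from -0.22 to 0.057. With the tumour ID number as a block Wnt7b was -0.15 and Lgr4 0.12. The tumours labelled deleted 1 and 4 carry ID numbers 25 and 39, which no other tumour has. That block therefore takes them out of the group comparison. Without the tumours labelled deleted 1 and 2, Fzd1 was 0.10 and Lgr4 was 0.017. The cause was not tested. Same-numbered tumours correlated in their deviations at -0.02 to 0.39. For numbers 3 and 5 the value was above that with any differently numbered tumour labelled deleted (0.32 against at most 0.006, and 0.39 against at most 0.25). These pairs share tumour ID numbers 38 and 40, whose meaning is not given, so relatedness within them is not excluded. For numbers 1, 2 and 4 it was not above. With the replicate block 0 WNT genes passed, and 6 had an unadjusted p under 0.05 in edgeR's test. Other scalings moved the median of all genes to between 0.01 and 0.03. Depth limits the 12 untested genes and 10 tested genes with a library under 20 reads: Ascl2, Fzd10, Notumos, Rspo1, Rspo3, Sfrp4, Sfrp5, Sp5, Wnt2b and Wnt6.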

Other observations

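Wif1 and Sfrp5, both secreted decoys of WNT proteins, had their lowest values in the same tumour and their highest in the same tumour, and were chosen for mention after their values were seen. Wif1 ran from 3.14 CPM in wild-type tumour 1 to 47.5 CPM in wild-type tumour 3, and Sfrp5 from 0.629 to 15.6 CPM. Their log2 fold changes between the groups were -0.07 (SE 0.72) and -0.10 (SE 0.84), and both turned sign when single tumours were left out.

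Without the tumour labelled deleted 1, 2 other WNT modulators had an unadjusted p under 0.05 in edgeR's test, beside 5.42% of all tested genes. Cthrc1, a secreted protein linked to polarity signalling, had a log2 fold change of -0.85 (SE 0.23), and Trabd2b, a membrane protease that inactivates WNT proteins, 0.99 (SE 0.41). Without the tumours labelled deleted 1 and 2 they were -0.97 (SE 0.25) and 1.26 (SE 0.33), and Frzb, a further decoy, joined them at 0.67 (SE 0.20), beside 4.24% of all tested genes. None of the 3 was under 0.05 with all 10 tumours.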
